A study of Mus musculus with 3 samples.

Results

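The genes described here are 10 regulators of the G1 phase of the cell cycle, followed in activated CD4 T cells across 3 culture media. They were chosen by gene symbol: the D-type cyclins Ccnd2 and Ccnd3, the E-type cyclins Ccne1 and Ccne2, the kinases Cdk4 and Cdk6, the CIP/KIP inhibitors Cdkn1a and Cdkn1b, and the INK4 inhibitors Cdkn2c and Cdkn2d. All 10 had a row among the 23282 gene rows of the files, and all 10 were among the 12770 rows with enough reads to be tested.

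CD4 T cells were taken from the spleen and lymph nodes of C57BL/6 mice (C57BL/6J in the methods of the study, female, 6 to 8 weeks old, with no engineered allele named) and were stimulated for 72 h with anti-CD3 and anti-CD28, each at 2 µg/ml. Complete medium (CM) was RPMI with 10% fetal bovine serum. Dialyzed medium (DM) was RPMI without amino acids with 10% dialyzed serum, and DM+Met was DM with methionine added at 30 µM. The paper reports measurable methionine in DM, so DM was reduced in methionine and not free of it. Every culture therefore received both antibodies, and no unstimulated cells were analysed here. There were 2 libraries per medium, each a bulk culture of magnetically sorted cells, and the number of mice behind a library is not given in the sources used here. RNA was sequenced from the 3′ end of transcripts, so that a transcript gives a read near its poly(A) tail whatever its length. Values are log2(CPM + 1), where CPM is reads relative to a common library size, after scaling between libraries by the TMM method. In bulk libraries, fewer cells carrying a transcript and less transcript per cell cannot be told apart.

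In a T cell that leaves quiescence, D-type cyclins pair with CDK4 or CDK6 and E-type cyclins pair with CDK2, and these kinases phosphorylate the retinoblastoma family of pocket proteins, which releases E2F factors to transcribe genes for DNA synthesis. INK4 proteins bind CDK4 and CDK6 and block their pairing with D-type cyclins. CIP/KIP proteins bind cyclin-CDK complexes, and p27 (Cdkn1b) is abundant in resting T cells whereas p21 (Cdkn1a) is induced by p53 and by mitogenic signals.

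Recovered depth was 8504742 to 12377285 reads per library. The ribosomal RNA precursor row Rn45s took 31.0% to 32.9% of the reads in CM, 37.2% to 38.3% in DM and 15.5% to 20.1% in DM+Met. The summed level of 10 CD4 T cell markers was 2078 to 2150 CPM in CM, 1958 to 2415 in DM and 2139 to 2186 in DM+Met, and all 10 had reads. The other lineages stood far lower, and Pax5, which defines B cells, was at 0 in every library. The B cell sum was 106 to 117 CPM in CM, 84.2 to 100.03 in DM and 65.2 to 77.7 in DM+Met. For CD8 T and NK cells it was 74.8 to 82.4 CPM in CM, 43.2 to 45.2 in DM and 40.8 to 52.7 in DM+Met. For myeloid cells it was 26.0 to 30.3 CPM in CM, 42.8 to 65.7 in DM and 51.5 to 71.9 in DM+Met. The summed level of 20 proliferation markers was 3049 to 3209 CPM in CM, 828 to 840 in DM and 750 to 794 in DM+Met. The part of these differences in the results for the 10 regulators was not tested.

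The proximal promoters of 5 regulators are shown because these genes either moved between media or carry an unusual cluster of one motif. RefSeq promoters of GRCm38.p6 (250 bases before to 50 after the start) were found for 8 of the 10 genes, 11 promoters in all. Ccnd2 and Ccne2 had no entry. Capitals mark the E-box CACGTG in the promoter of Cdk4, and the GC box GGGCGG (or its reverse complement CCGCCC) in the others.
Cdk4, chr10:127063285-127063584, plus strand: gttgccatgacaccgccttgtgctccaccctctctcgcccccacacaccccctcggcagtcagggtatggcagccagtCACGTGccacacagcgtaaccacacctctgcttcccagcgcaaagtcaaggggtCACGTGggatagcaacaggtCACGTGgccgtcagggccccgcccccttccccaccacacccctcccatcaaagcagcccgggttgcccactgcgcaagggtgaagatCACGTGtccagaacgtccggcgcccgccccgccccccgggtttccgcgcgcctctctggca
Ccne1, chr7:38107441-38107740, minus strand: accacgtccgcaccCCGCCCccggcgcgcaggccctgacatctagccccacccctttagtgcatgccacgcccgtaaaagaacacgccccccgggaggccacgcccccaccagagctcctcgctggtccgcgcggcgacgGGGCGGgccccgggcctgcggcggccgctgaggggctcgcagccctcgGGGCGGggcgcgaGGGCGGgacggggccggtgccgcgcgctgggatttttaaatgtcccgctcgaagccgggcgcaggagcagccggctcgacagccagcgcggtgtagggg
Cdkn1a, the second of 2 promoters, chr17:29093519-29093818, plus strand: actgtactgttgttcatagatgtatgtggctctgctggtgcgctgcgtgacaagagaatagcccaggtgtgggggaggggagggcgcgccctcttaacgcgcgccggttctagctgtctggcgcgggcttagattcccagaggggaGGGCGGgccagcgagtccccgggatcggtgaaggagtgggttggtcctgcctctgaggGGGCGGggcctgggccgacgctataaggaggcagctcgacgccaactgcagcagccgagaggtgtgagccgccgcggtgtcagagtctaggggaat
Cdkn2d, chr9:21291160-21291459, minus strand: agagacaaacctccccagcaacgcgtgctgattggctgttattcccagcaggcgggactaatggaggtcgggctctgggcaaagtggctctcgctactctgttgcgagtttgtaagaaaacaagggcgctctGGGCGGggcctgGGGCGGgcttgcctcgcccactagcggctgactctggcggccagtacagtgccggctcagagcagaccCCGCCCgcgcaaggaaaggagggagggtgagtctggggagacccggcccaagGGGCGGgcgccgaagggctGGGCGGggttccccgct
Cdkn1b, chr6:134920151-134920450, plus strand: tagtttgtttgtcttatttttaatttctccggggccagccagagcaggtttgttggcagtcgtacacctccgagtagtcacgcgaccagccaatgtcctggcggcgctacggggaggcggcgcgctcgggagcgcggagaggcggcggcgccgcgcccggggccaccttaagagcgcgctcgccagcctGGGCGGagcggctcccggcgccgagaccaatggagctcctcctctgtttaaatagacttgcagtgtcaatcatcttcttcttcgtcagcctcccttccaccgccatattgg

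The Cdk4 promoter held 4 E-boxes, the 6-letter palindrome that Myc binds with its partner Max, with first bases at -172, -118, -98 and -11 from the start. Of 32851 RefSeq promoters searched on both strands, 7.15% held at least 1 E-box and 0.0244%, which is 8 promoters, held at least 4. Cdk6 held 1 E-box at -220 and the second Cdkn2c promoter held 1 at +35. GC boxes, the letters bound by SP1-type factors, stood in 35.7% of all promoters, and 5.49% held at least 4. Cdkn2d held 5, Ccne1 held 4, Cdk4 held 3, Cdkn1b held 1 and Cdk6 held 0. Of the genes with 2 promoters, Cdkn2c held 4 and 0, Cdkn1a held 0 and 2, and Ccnd3 held 2 in each. The E2F letters TTTGGCGC, TTTCCCGC, TTTCGCGC and TTTGCCGC, present in 2.26% of all promoters, stood in 0 of the 11 promoters. The FOXO letters GTAAACA, present in 3.65%, stood only in the first Ccnd3 promoter, at -243. These matches describe letters in a window and say nothing of binding.

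The comparison of DM with CM addressed what reduced nutrients do to activated CD4 T cells. Of the 10 regulators, 5 passed an adjusted p of 0.05 (limma, Benjamini-Hochberg over all rows tested), 2 of them higher in DM (Ccnd2 and Cdkn1b) and 3 lower (Ccne1, Cdkn1a and Cdkn2d). Among all rows tested the share called was 16.9%, with 7.8% higher and 9.07% lower. The regulators were chosen with earlier results of these data known, so the 2 shares are set side by side as a description. The median log2 difference over the 10 regulators was -0.54, beside 0.07 over all rows. The 3 comparisons between media share libraries and are therefore not independent of each other.

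**Figure D1:**
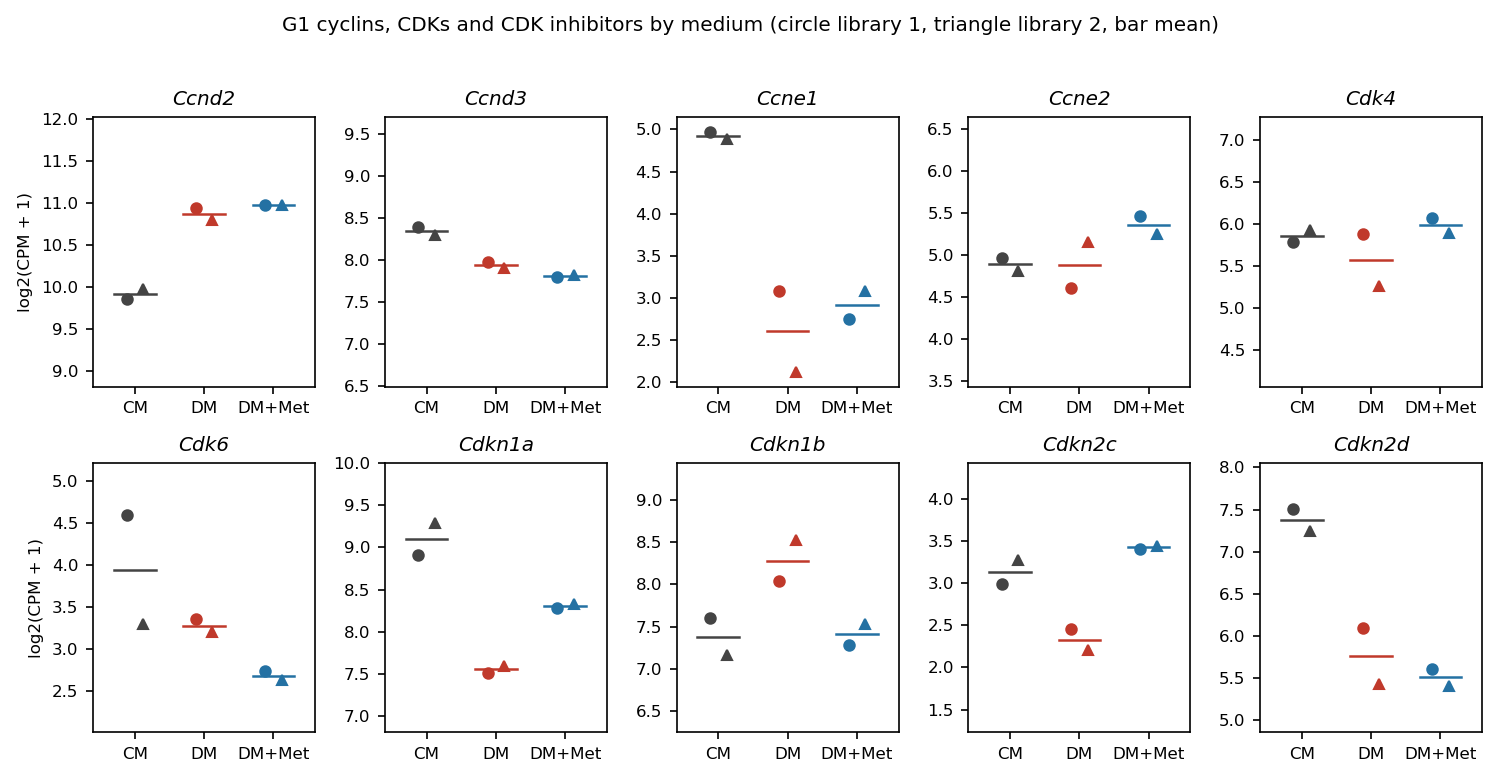
Expression of each of the 10 G1 regulators in log2(CPM + 1), with the 3 media on the x axis, circles for library 1, triangles for library 2 and bars for the mean of 2 libraries; every panel spans the same height on the log2 scale. Ccnd2 is higher and Ccne1, Cdkn1a and Cdkn2d are lower in both DM libraries than in both CM libraries, and Cdkn1b is highest in DM.

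Ccnd2 encodes cyclin D2, the D-type cyclin induced early after T cell stimulation, and lies at chr6:127125162-127152193 on the minus strand (GRCm38). Its level was 9.86 and 9.98 (CM), 10.95 and 10.80 (DM), and 10.98 and 10.98 (DM+Met), on 7866 to 24056 reads. Both CM libraries lay below all 4 libraries of the dialyzed media. Ccnd2 rose by 0.95 on the log2 scale in DM (adjusted p = 0.00188, SE 0.13), a 1.94-fold difference.

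Ccnd3 encodes cyclin D3, the D-type cyclin needed for expansion of lymphocyte precursors, and lies at chr17:47505051-47599691 on the plus strand. Its level was 8.40 and 8.29 (CM), 7.97 and 7.90 (DM), and 7.80 and 7.82 (DM+Met). The 3 media did not overlap and stood in the order CM, DM, DM+Met. The DM to CM difference of -0.41 (SE 0.14, 95% confidence interval -0.73 to -0.09, adjusted p = 0.0789) did not pass the threshold. The 3′ end of Ccnd3 is shared, over 361 exonic bases, with Bysl on the opposite strand, and Bysl had 2457 to 2870 reads per library where Ccnd3 had 2443 to 2955. The levels of Bysl, which encodes a ribosome assembly factor, were 8.35 and 8.34 (CM), 7.98 and 7.94 (DM), and 7.91 and 7.92 (DM+Met), nearly those of Ccnd3. Strand handling in the counting is not given in the sources used here, so the reads of the 2 genes cannot be told apart.

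Ccne1 and Ccne2 encode cyclins E1 and E2, the partners of CDK2 at entry into S phase. Ccne1, at chr7:38097984-38107534 on the minus strand, was at 4.97 and 4.89 (CM), 3.08 and 2.12 (DM), and 2.74 and 3.08 (DM+Met). It had 266 and 223 reads in CM and 38 to 89 in the other libraries. Both CM libraries lay above the other 4, and DM and DM+Met overlapped. Ccne1 was the regulator with the largest fall in DM, by 2.33 on the log2 scale (adjusted p = 0.0112, SE 0.48).

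Ccne2, at chr4:11191351-11204779 on the plus strand, was at 4.96 and 4.82 (CM), 4.61 and 5.15 (DM), and 5.47 and 5.25 (DM+Met). The DM libraries lay on both sides of the CM libraries. Its DM to CM difference was -0.01 with a 95% confidence interval of -0.66 to 0.64, so a change of less than about that size was not detectable with these libraries. Ints8 on the opposite strand shares 609 exonic bases with Ccne2, the nearest of them 196 bases from its 3′ end, and had 96 to 422 reads.

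The kinases did not pass the test in any of the 3 comparisons. Cdk4, at chr10:127063534-127067920 on the plus strand, was at 5.78 and 5.92 (CM), 5.88 and 5.26 (DM), and 6.07 and 5.90 (DM+Met). The media overlapped except that both DM+Met libraries lay above both DM libraries. The DM to CM difference of Cdk4 was -0.28 (95% confidence interval -0.85 to 0.29, adjusted p = 0.494). Its 3′ end is shared with Tspan31 on the opposite strand, over 641 exonic bases, and Tspan31 had 35 to 184 reads beside 424 to 789 for Cdk4.

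Cdk6, at chr5:3341485-3531008 on the plus strand, was at 4.59 and 3.30 (CM), 3.36 and 3.20 (DM), and 2.74 and 2.63 (DM+Met). The first CM library, with 203 reads, stood apart from the second, with 69. The DM to CM difference was -0.66 (95% confidence interval -1.86 to 0.53, adjusted p = 0.430), and it was -0.02 without the first CM library and -1.31 without the second.

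The CIP/KIP inhibitors moved in opposite directions in DM. Cdkn1a encodes p21 and lies at chr17:29090976-29100727 on the plus strand. Its level was 8.91 and 9.29 (CM), 7.51 and 7.59 (DM), and 8.28 and 8.33 (DM+Met), on 1782 to 4883 reads. The media did not overlap, with CM highest, DM lowest and DM+Met between them. Cdkn1a fell by 1.55 on the log2 scale in DM (adjusted p = 4.71e-04, SE 0.16), and had the lowest adjusted p of the 10 regulators in this comparison.

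Cdkn1b encodes p27 and lies at chr6:134920401-134925513 on the plus strand. Its level was 7.60 and 7.16 (CM), 8.04 and 8.53 (DM), and 7.28 and 7.53 (DM+Met). Both DM libraries lay above the other 4, while CM and DM+Met overlapped. Cdkn1b rose by 0.90 in DM (adjusted p = 0.0200, SE 0.21).

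Of the INK4 inhibitors, Cdkn2d fell in DM. It encodes p19 INK4d and lies at chr9:21288410-21291407 on the minus strand. Its level was 7.50 and 7.25 (CM), 6.09 and 5.43 (DM), and 5.61 and 5.40 (DM+Met), with 1582 and 1178 reads in CM and 477 to 659 elsewhere. Both CM libraries stood above the other 4, and DM overlapped DM+Met. The fall in DM was by 1.61 on the log2 scale (adjusted p = 0.00317, SE 0.25).

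Cdkn2c encodes p18 INK4c and lies at chr4:109660876-109667189 on the minus strand. It had few reads, 41 to 118 per library, with levels of 2.99 and 3.28 (CM), 2.46 and 2.21 (DM), and 3.41 and 3.45 (DM+Met). DM was lowest and DM+Met highest without overlap. The DM to CM difference of -0.80 (adjusted p = 0.290, SE 0.49) did not pass.

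Over 17 alternative settings, only Cdkn1a kept its call between DM and CM in all of them, with adjusted p up to 0.0414 in limma. The call of Cdkn1b was lost when any 1 of the 6 libraries was left out and in 3 other settings (adjusted p up to 0.157), that of Ccne1 when any library but the first DM one was left out (up to 0.0821), that of Cdkn2d without the first CM library (0.0607), and that of Ccnd2 without an intensity trend (0.0643).

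**Figure D2:**
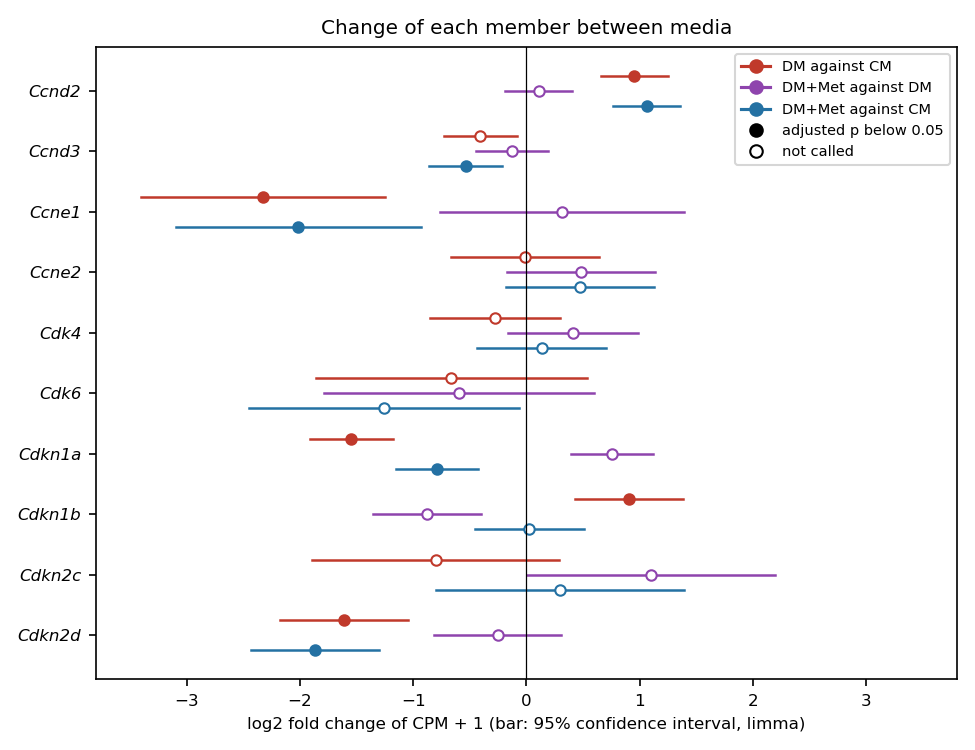
Log2 fold change of each G1 regulator in 3 comparisons of media, with bars for the 95% confidence interval of limma, filled points for an adjusted p below 0.05 and open points for the rest. For DM+Met against DM all 10 points are open, and the intervals of Cdkn1a (0.39 to 1.12) and Cdkn1b (-1.36 to -0.40) lie on opposite sides of 0.

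The comparison of DM+Met with DM addressed what methionine alone does when added to the reduced medium. Of the 10 regulators 0 passed the adjusted threshold in limma, and 0 in limma-voom on the recovered reads, and of all rows tested 0.0548% did, which is 7 rows. At an unadjusted p below 0.05 in the same fit there were 3, Cdkn1a, Cdkn1b and Cdkn2c, beside 9.69% of all rows. The means of all 3 were nearer to CM in DM+Met than in DM. The 3 were picked by their difference from the same DM libraries, so this is a description and no test of a return to CM. Cdkn1a was higher by 0.75 on the log2 scale (95% confidence interval 0.39 to 1.12, adjusted p = 0.213) and stood 57th among all rows when these were ranked by p. Cdkn1b was lower, with a difference of -0.88 (95% confidence interval -1.36 to -0.40, adjusted p = 0.257), at rank 111. Cdkn2c differed by 1.097 (95% confidence interval 0.003 to 2.19, adjusted p = 0.514). Both DM+Met libraries lay on one side of both DM libraries in these 3 genes and in Ccnd2, Ccnd3, Ccne2, Cdk4 and Cdk6, 8 of the 10 regulators, beside 41.0% of all rows tested.

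The cyclins and Cdkn2d showed smaller differences on addition of methionine. Ccnd2 differed by 0.11 (95% confidence interval -0.19 to 0.40), Ccnd3 by -0.13 (-0.45 to 0.19) and Cdkn2d by -0.26 (-0.82 to 0.31). The intervals of the less abundant transcripts were wide, with Ccne1 at 0.31 (-0.77 to 1.39), Ccne2 at 0.48 (-0.17 to 1.13), Cdk4 at 0.41 (-0.16 to 0.98) and Cdk6 at -0.59 (-1.79 to 0.60). The intervals of all 7 genes span 0, and a missed threshold does not show that the media acted alike. With library totals in place of TMM scaling, Cdkn1a passed, at a difference of 1.12 (adjusted p = 0.0320) on a scale where the median of all rows moved to 0.34.

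DM+Met was also set against CM, which asks what still differed from complete medium after methionine was added. Of the 10 regulators, 5 passed, 1 higher (Ccnd2) and 4 lower (Ccnd3, Ccne1, Cdkn1a and Cdkn2d), beside 15.3% of all rows, 6.92% higher and 8.36% lower. With library totals in place of TMM scaling, 3 passed, 1 higher and 2 lower. Ccnd2 rose by 1.06 (adjusted p = 8.44e-04, SE 0.13), Ccne1 fell by 2.01 (adjusted p = 0.0209, SE 0.48) and Cdkn2d fell by 1.87 (adjusted p = 0.00128, SE 0.25). These 3 genes had been called in the same direction in DM. Cdkn1a fell by 0.79 (adjusted p = 0.0103, SE 0.16), a smaller difference than in DM, with both DM+Met libraries between the other media. Ccnd3 fell by 0.54 (adjusted p = 0.0328, SE 0.14), with the reads of Bysl as above.

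The other 5 regulators did not pass between DM+Met and CM. Cdkn1b differed by 0.03 with a 95% confidence interval of -0.45 to 0.51. Ccne2 differed by 0.47 (adjusted p = 0.320), Cdk4 by 0.13 (adjusted p = 0.770), Cdk6 by -1.26 (adjusted p = 0.145) and Cdkn2c by 0.29 (adjusted p = 0.732). Cdk6 again rested on the first CM library, since its difference was -0.61 without it and -1.90 without the second. No call in this comparison held under all 17 alternatives: Ccnd2 was lost without an intensity trend (adjusted p = 0.0597), Cdkn2d without the second DM+Met library (0.0613), Ccne1 in 5 settings (up to 0.214), Cdkn1a in 7 (up to 0.147) and Ccnd3 in 8 (up to 0.530).

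Within a library, the balance between related regulators can be read as the log2 ratio of the pair, which does not depend on how libraries are scaled apart from the added 1. The ratio of Ccnd2 to Ccnd3 was 1.46 and 1.68 (CM), 2.97 and 2.89 (DM), and 3.18 and 3.16 (DM+Met). The 3 media did not overlap, and the ratio was higher in both dialyzed media, with Bysl reads possibly within those of Ccnd3. The ratio of Ccne1 to Ccne2 was 0.01 and 0.07 (CM), -1.53 and -3.03 (DM), and -2.73 and -2.17 (DM+Met). Thus the E-type cyclins gave nearly the same number of reads in CM, and Ccne2 gave more in the other 4 libraries. Reads of Ints8 may lie within those of Ccne2.

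The ratio of Cdkn1a to Cdkn1b was 1.31 and 2.13 (CM), -0.53 and -0.93 (DM), and 0.999 and 0.81 (DM+Met). The sign of this ratio differed between media, with more p21 than p27 reads in CM and DM+Met and fewer in DM. Between DM+Met and DM the ratio differed by 1.63 on the log2 scale, a 3.1-fold difference. The ratio of Cdkn2c to Cdkn2d was -4.51 and -3.97 (CM), -3.64 and -3.22 (DM), and -2.20 and -1.96 (DM+Met), again without overlap. The ratio of Cdk4 to Cdk6 was 1.19 and 2.62 (CM), 2.52 and 2.06 (DM), and 3.33 and 3.26 (DM+Met), so that CM spanned the DM values. Reads of Tspan31 may lie within those of Cdk4. With 2 libraries per medium, the smallest p that an exact permutation test can give is 0.333, so the differences between media in these ratios are given as descriptions.

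**Figure D3:**
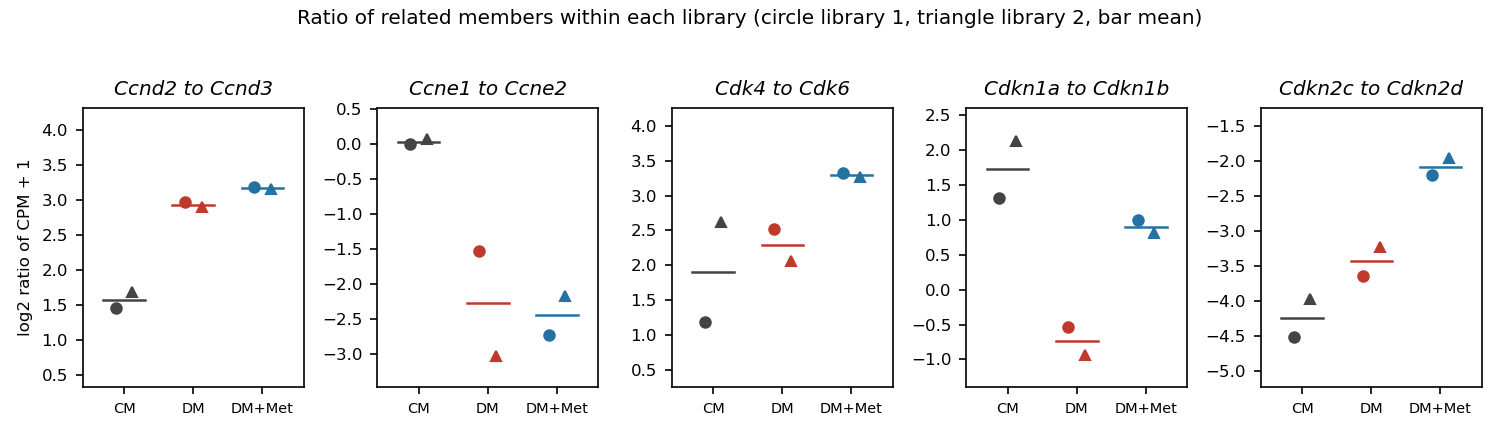
Log2 ratio of CPM + 1 between the members of 5 pairs within each library, with the 3 media on the x axis, circles for library 1, triangles for library 2 and bars for the mean; every panel spans the same height. The ratio of Cdkn1a to Cdkn1b is above 0 in CM and DM+Met and below 0 in DM, and the ratio of Ccnd2 to Ccnd3 is higher in DM and DM+Met than in CM.

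The rest of the G1 pathway was described with 67 further genes in 7 lists. These lists were also chosen with earlier results of these data known, so their shares are descriptions. Between DM and CM 15 of them passed (22.4%), 6 higher and 9 lower, beside 16.9% of all rows tested. Their median log2 difference was -0.12, beside 0.07 over all rows. Between DM+Met and DM 0 passed, beside 0.0548% of all rows. Between DM+Met and CM 13 passed (19.4%), 6 higher and 7 lower, beside 15.3% of all rows. That last split depended on scaling, with 11 higher and 3 lower under library totals and 7 higher and 4 lower under totals without Rn45s. Of the 10 E2F and DP factors, the effectors released by pocket proteins, 3 (30.0%) fell in DM and 7 were not called. The activators E2f1 and E2f2 fell by 1.88 and 2.42 on the log2 scale (adjusted p = 0.0240 and 1.42e-04) and the repressor E2f8 fell by 2.75 (adjusted p = 0.00926). Of the pocket proteins, Rb1 (-0.59), Rbl1 (0.51) and Rbl2 (0.06) were not called in DM.

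Cks1b, the cofactor with which the SCF-Skp2 ligase recognises p27, gave the largest fall of the 67 genes in DM. Its level was 6.99 and 7.18 (CM), 3.24 and 4.15 (DM), and 3.49 and 3.65 (DM+Met). Both CM libraries lay above the other 4. Cks1b fell by 3.39 in DM (adjusted p = 4.57e-04). Rnf123, a subunit of another ligase of p27, rose by 0.89 (adjusted p = 0.0490). Of the 13 genes in this list, Ddb1, an adaptor of CUL4 ligases, and Fzr1, an activator of the anaphase-promoting complex, also fell, by 0.74 and 1.21, and 9 were not called. The share called was 30.8%, beside 16.9% of all rows.

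Among 12 transcriptional regulators of the 10 genes, 3 rose, 2 fell and 7 were not called in DM. The share called was 41.7%, beside 16.9% of all rows. Klf2, a factor of T cell quiescence, rose by 2.53 (adjusted p = 3.88e-04), Egr1 by 2.34 (adjusted p = 7.39e-04) and Myc by 1.66 (adjusted p = 0.0117). Jun fell by 1.61 and Stat5a, a mediator of cytokine signals, by 0.88. Foxo1, which transcribes Cdkn1b in resting lymphocytes, differed by 0.08 (95% confidence interval -0.32 to 0.47) and was not called. The Myc level was 3.72 and 3.57 (CM), 5.61 and 4.996 (DM), and 4.89 and 5.49 (DM+Met). All 4 libraries of the dialyzed media lay above both CM libraries. Any link between the Myc level and the E-boxes of the Cdk4 promoter was not tested.

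Of 19 p53 targets other than Cdkn1a, 2 were called higher and 0 lower in DM, with a median of -0.25. The share called was 10.5%, below the 16.9% of all rows. Fas, a death receptor, rose by 1.52 (adjusted p = 0.00224). Eda2r, a receptor of the same family, had 0 reads in both CM libraries and 42 and 24 in DM. It was tested only because its 2 DM libraries reached the filter, so its limma call (adjusted p = 0.0350) is no support for a rise. The targets not called lay on both sides of 0, such as Mdm2 (-0.35), Ccng1 (-0.53), Btg2 (0.57) and Sesn1 (0.73). Trp53 itself differed by 0.42 (adjusted p = 0.340). Of 6 other cyclins, kinases and activators only Mnat1, which assembles the CDK-activating kinase, was called in DM and fell by 0.92 (adjusted p = 0.0497). The 16.7% called in that list was near the share of all rows. Of 4 other inhibitors none was called in DM, and their differences were -1.90 for Cdkn2a, -1.60 for Cdkn3, -0.64 for Cdkn2b and 0.74 for Cdkn1c.

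Of 20 proliferation markers of S phase and mitosis, 19 were called lower in DM, with a median of -2.04, beside 9.07% of all rows. Between DM+Met and CM 18 were called lower, beside 8.36% of all rows. Between DM+Met and DM 0 of 20 passed, with a median of -0.04, where only 0.0548% of all rows passed. Of the 5 regulators called in DM, the cyclin Ccne1 and the inhibitors Cdkn1a and Cdkn2d had the direction of these markers, and the cyclin Ccnd2 and the inhibitor Cdkn1b the opposite one.

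**Figure D4:**
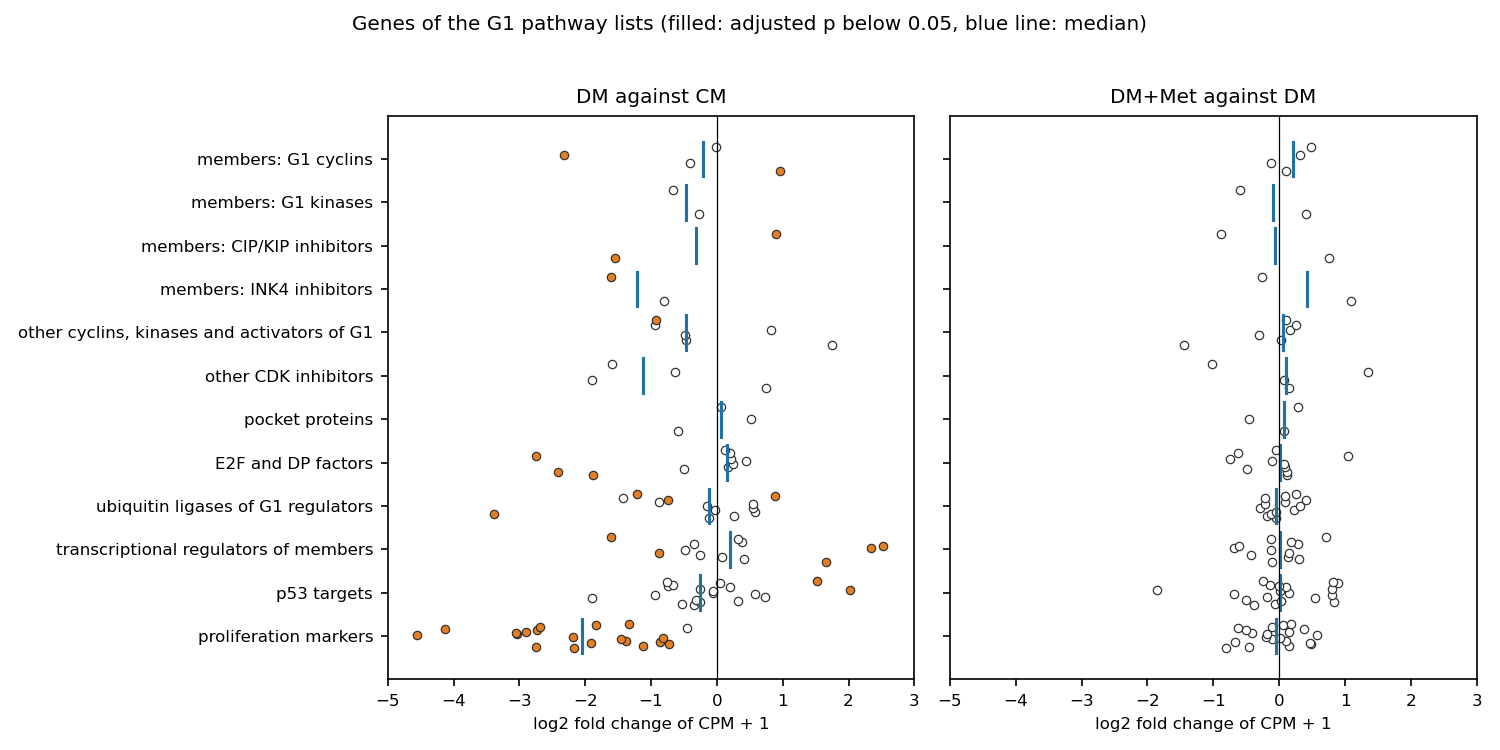
Log2 fold change of CPM + 1 of the 10 G1 regulators in 4 groups, of the 67 other pathway genes in 7 lists and of 20 proliferation markers, for DM against CM on the left and DM+Met against DM on the right; each point is a gene, filled where the adjusted p is below 0.05, and the blue line is the median of the list. Filled points occur only on the left, where all 20 proliferation markers lie below 0 and 19 of them are filled.

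For each regulator, the transcripts nearest in profile over the 6 libraries were found by Euclidean distance between log2 values centred on each gene's mean. The libraries share media and depth, so these are descriptions without a test. Ccnd2 lay nearest to the long noncoding transcripts Neat1 (distance 0.16) and Gt(ROSA)26Sor (0.17), Ccnd3 to Sec11a (0.08) and Rpl37a (0.11), and Ccne1 to Tubb5 (0.51) and Ermn (0.54). Cdk4 lay nearest to Dpf2 (0.06) and Dedd2 (0.19), Ccne2 to N4bp2l2 (0.19) and Smc6 (0.21), and Cdk6 to Tmem219 (0.27) and Capsl (0.38). Cdkn1a lay nearest to Vars (0.28), the valine tRNA synthetase, and Ezh2 (0.28), a histone methyltransferase, and Cdkn1b to Edrf1 (0.34) and Plxnc1 (0.37). Cdkn2c lay nearest to Rps15a (0.26) and Ss18l1 (0.28), and Cdkn2d to P4hb (0.33) and Cdc7 (0.37), a kinase of replication origins. Because Vars and Ezh2 were picked for this nearness, their order CM, DM+Met, DM follows that of Cdkn1a. In that order the mean levels were 6.80, 6.04 and 5.50 for Vars and 8.40, 7.64 and 7.08 for Ezh2.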

How the data were processed

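Total RNA (500 ng per library) was made into 3′ libraries. The authors deposited log2 values of TMM-scaled CPM plus 1 (23282 rows); base and added constant follow from the equal steps between values. The submitters' processing notes name Bowtie2, bedtools and mm10, and the annotation, counting settings and strand handling are not given in the sources used here. The labels give 1 sample per medium with 2 files, taken as replicate libraries because the study speaks of 2 independent biological samples in each medium; were they technical, p-values would measure technical spread.

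Reads were recovered from the steps; up to 300 reads, at least 99.776% of values lay within 0.1 of a whole number. The floor of 3 reads (log2 0.323 to 0.469) covers counting error only, whereas the confidence intervals are those of limma, from the spread between libraries. Rows were tested where at least 2 libraries reached 0.946 CPM (10 reads at the median scaled depth) and the total reached 15 reads. limma 3.58.1 in R 4.3.3 (lmFit, eBayes with trend) was fitted to the deposited values of all 3 media together, and all tests were two-sided with Benjamini-Hochberg adjustment over 12770 rows and a threshold of 0.05. Fold changes on the log2(CPM + 1) scale understate changes of genes with few reads. Scripts were tested on simulated data.

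The 10 regulators and the lists were chosen with earlier results of these data known. All regulators were named, and 2 nearest profiles per regulator, passing over predicted genes. Of the pathway genes, those called in DM against CM or DM+Met against DM were named, up to 6 a list. Lists under 5 were named in full. Trp53, Mdm2, Ccng1, Btg2, Sesn1, Foxo1 and the overlapping genes were named in addition, and the GC box was added, after values were seen. Coordinates are GENCODE M21 on GRCm38, the build that mm10 names. Alternatives were other scaling, filters, pseudocounts, variance priors, limma-voom, 2 media only, a replicate block and leaving out each library.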

Additional observations from a re-analysis of the deposited data

How the results depend on the processing

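The number of regulators called was 5 between DM and CM, 0 between DM+Met and DM and 5 between DM+Met and CM. Over the 17 alternatives and 3 comparisons, 459 of 510 values for single regulators kept their direction and side of the threshold, 38 lost the call, 1 gained it and 12 changed sign. With 1 library left out the counts were 2 to 4, 0 and 1 to 4, where a lone library was assumed to vary like the other media. Without an intensity trend they were 3 and 2 against CM, and with library totals 1 between DM+Met and DM (Cdkn1a) and 3 between DM+Met and CM. Library totals moved the median of all rows to 0.34 and 0.41 in those comparisons, and the calls over all rows from 5 higher and 2 lower to 51 and 4, and from 884 and 1068 to 2060 and 641. Over all rows between DM and CM, 996 higher and 1158 lower became 277 and 518 with only the 2 media in the fit and 279 and 262 without the first CM library. Of the 67 pathway genes, 15, 0 and 13 were called; 7 were called between DM and CM with only the 2 media in the fit, 1 between DM+Met and DM with library totals, 6 between DM+Met and CM with no filter and 6 without a trend, and with 1 library left out 5 to 9 and 2 to 9 against CM.

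Values near 0 changed sign. Ccne2 between DM and CM was 0.018 with library totals, 0.14 without Rn45s in the totals, 3.40e-04 in limma-voom and -0.28 to 0.26 with 1 library left out; Cdk4 was -0.59 to 0.029. Between DM+Met and DM, library totals gave 0.23 for Ccnd3 and 0.10 for Cdkn2d (-0.10 and -0.23 relative to the median), and leaving out 1 library gave -0.17 to 0.79 for Ccne1 and -0.59 to 0.076 for Cdkn2d. Cdkn1b between DM+Met and CM was -0.20 to 0.25 with 1 library left out. The ratio of Ccne1 to Ccne2 between DM+Met and DM was -0.92 to 0.58 with 1 library left out (0.58 without the first DM library), and that of Cdk4 to Cdk6 between DM and CM was -0.33 to 1.103 (-0.33 without the first CM library). Apart from leaving out libraries, the cause was not tested.

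With a replicate block on the file number the counts were 5, 0 and 4, as Ccnd3 lost its call between DM+Met and CM. Deviations of same-numbered libraries correlated at -0.025, 0.0048 and -0.030 between media, so no shared deviation was seen. Whether same-numbered libraries came from the same mice is not given. This check cannot decide it, because counting error also lowers such correlations.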
